A study of Gallus gallus with 20 samples.

Results

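The genes described here encode the precursors of orexin, of gut-brain peptides and of other peptides that act on appetite. Of 10 names listed, 9 matched a gene name in the deposited count table of 28021 genes: HCRT, GRP, NMU, NTS, CCK, NUCB2, PENK, TAC1 and BDNF. PDYN was not matched by name and is not analysed here. The rule took the members by name and used no measured value, but the names were chosen with earlier results of these data known.

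The birds were male Korat chickens, sampled at 10 weeks of age from 200 chicks that were raised in individual cages and fed freely. Residual feed intake (RFI) is the feed a bird eats beyond what its weight and growth predict, so a low value marks a bird that eats less than predicted. The 4 groups were hypothalamus of low RFI birds, hypothalamus of high RFI birds, pituitary of low RFI birds and pituitary of high RFI birds, with 5 libraries in each and no other treatment or genotype named. Total RNA was sequenced as pools of birds. The design text gives 10 birds per group in 5 pools for the hypothalamus. For the pituitary it gives 8 birds per group in 4 pools, whereas the titles list 5 libraries per group, and the 5 were used as labelled. The p-values therefore measure the spread between pooled samples, and birds of the extreme RFI classes stand for their class.

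Peptide precursors of this kind are made as long proteins, cut and modified inside secretory granules, and released to act on receptors of the G protein-coupled class. Orexin neurons sit in the lateral hypothalamus and project widely, and in mammals they couple wakefulness to feeding. Cholecystokinin, gastrin-releasing peptide, neuromedin U and neurotensin are made both in the gut and in the brain, and reduce food intake when given to rodents. The enkephalins act on opioid receptors, the tachykinins act on neurokinin receptors, and BDNF is a growth factor that signals through the kinase receptor NTRK2.

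Markers of pituitary hormone cells separated the tissues. Anterior pituitary endocrine markers, 10 matched of 11 listed, summed to between 14.0 and 67.8 CPM in hypothalamus libraries and between 21000 and 103000 CPM in pituitary libraries (CPM, counts relative to the scaled library size, on 1 scale for all 20 libraries). The summed CPM of the 4 lateral hypothalamus markers, all matched, was not higher in the hypothalamus. It lay between 137 and 521 CPM in hypothalamus libraries and between 413 and 1540 CPM in pituitary libraries. CARTPT alone held at least 282 CPM in each pituitary library. Taken singly, 2 of the 4 passed as higher and 1 as lower in the hypothalamus (edgeR quasi-likelihood test, Benjamini-Hochberg adjusted p under 0.05). Of all genes tested, 32.5% passed as higher and 38.3% as lower. There were 5 libraries that stood apart. Hypothalamus low RFI library 2 held 25600 CPM of TTR and 1160 CPM of ASMT, against at most 80.3 and 2.38 CPM in the other hypothalamus libraries. Pituitary low RFI library 1 held 37.7 CPM of GBX2, low RFI library 2 held 475 CPM of SCN11A, low RFI library 4 held 312 CPM of CHIA and high RFI library 4 held 123 CPM of FAT2. The next highest pituitary libraries for these genes held 0.314, 25.0, 1.16 and 2.61 CPM. Without the 5 libraries, only pituitary low RFI libraries 3 and 5 and pituitary high RFI libraries 1, 2, 3 and 5 remained in that tissue. The 10 matched neuron markers, of 11 listed, summed to 4440, 2620, 519, 729 and 617 CPM in low RFI pituitary libraries 1 to 5 and to 520, 790, 862, 2350 and 709 CPM in high RFI pituitary libraries 1 to 5. Hypothalamus libraries summed to between 11418600 and 12647034 reads and pituitary libraries to between 10262777 and 11960994 reads. A gene with 3 counts thus has 0.259 to 0.292 CPM in a hypothalamus library and 0.225 to 0.259 CPM in a pituitary library. In whole tissue, fewer cells of a type and less RNA per cell cannot be told apart.

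Levels of different genes were set side by side only as the authors' FPKM, which divides by gene length. In the 10 hypothalamus libraries CCK was highest at 161 ± 98.7 FPKM (SD), followed by PENK at 92.1 ± 15.6 and NUCB2 at 39.1 ± 4.06. NTS averaged 29.0 ± 6.88, GRP 25.8 ± 25.9, TAC1 22.7 ± 6.58 and HCRT 15.9 ± 17.7 FPKM. BDNF at 2.26 ± 1.34 and NMU at 1.2 ± 1.15 FPKM were lowest. PENK exceeded NUCB2, and NUCB2 exceeded NTS, in 10 of 10 libraries (exact sign-flip test of log2(FPKM + 0.1), two-sided, adjusted p = 0.00781 for both over 8 neighbouring pairs). HCRT exceeded BDNF and BDNF exceeded NMU in 8 of 10 libraries (exact test, adjusted p = 0.0469 for both). The other neighbours, CCK and PENK, NTS and GRP, GRP and TAC1, and TAC1 and HCRT, did not differ beyond their spread (exact test, adjusted p = 0.0677, 0.201, 0.457 and 0.0625).

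The order differed in the pituitary, where GRP was highest at 426 ± 349 FPKM and NUCB2 followed at 74.1 ± 11.6 (SD, n = 10). PENK averaged 37.1 ± 12.3, CCK 30.1 ± 44.7, TAC1 21.3 ± 37.2 and NTS 5.51 ± 5.47 FPKM. BDNF at 1.46 ± 2.00, NMU at 0.571 ± 0.371 and HCRT at 0.137 ± 0.207 FPKM came last. GRP exceeded NUCB2 in 10 of 10 libraries, NUCB2 exceeded PENK in 9, NTS exceeded BDNF in 9 and NMU exceeded HCRT in 10 (exact sign-flip test, adjusted p = 0.00781 each). PENK and CCK, CCK and TAC1, TAC1 and NTS, and BDNF and NMU did not differ beyond their spread (exact test, adjusted p = 0.0729, 0.311, 0.0729 and 0.266).

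**Figure D1:**
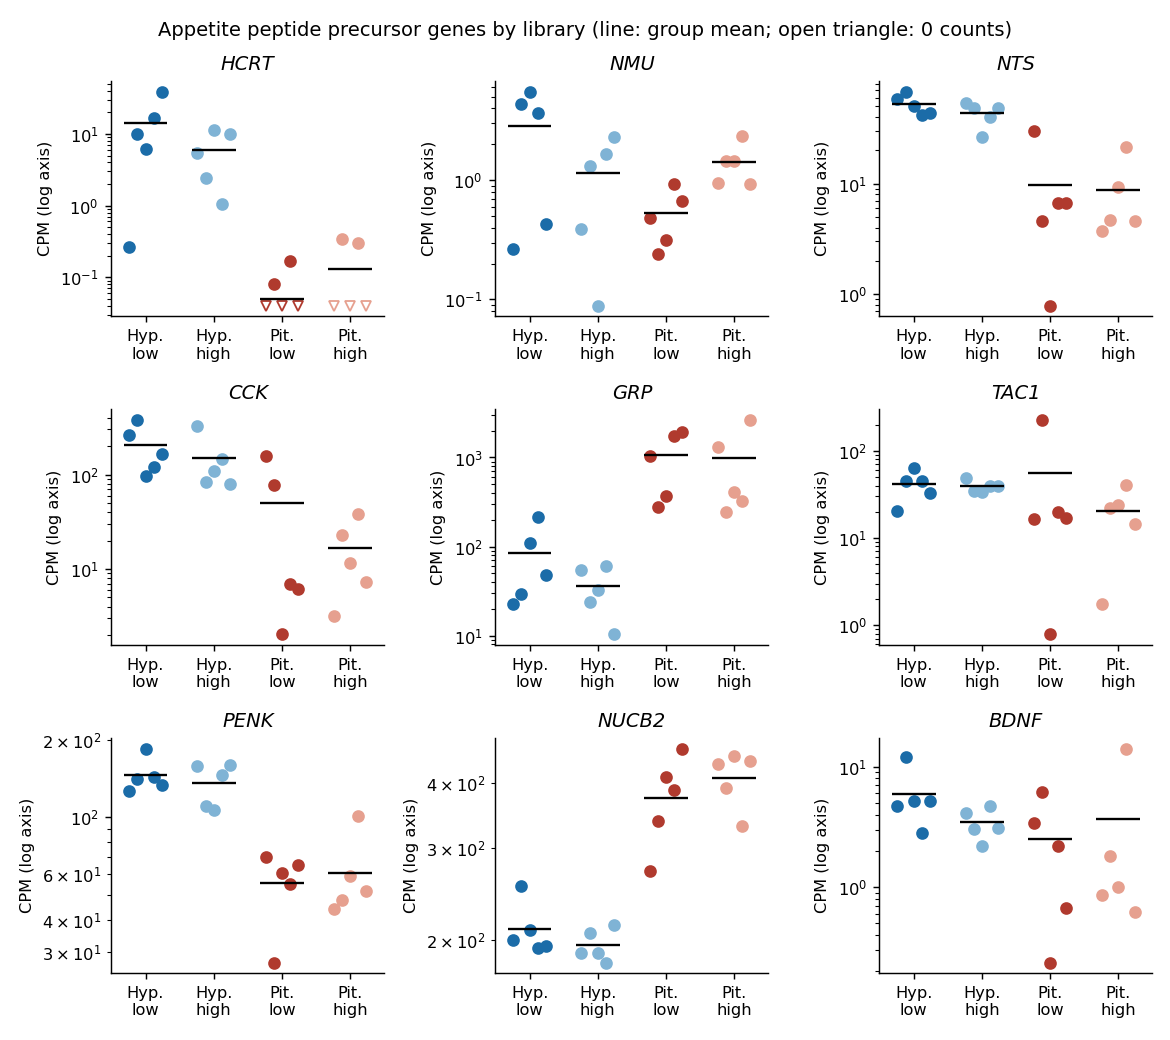
Level of the 9 precursor genes in each library, as CPM on a log axis, in hypothalamus (Hyp.) and pituitary (Pit.) of low and high RFI birds, with 1 point per library, a line at the group mean and open triangles for libraries with 0 counts. GRP and NUCB2 were higher in every pituitary library than in any hypothalamus library and PENK was lower in every pituitary library, while the low and high RFI groups overlapped for all 9 genes in both tissues.

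Orexin came first in the order of roles. HCRT (ENSGALG00000011485, GRCg6a chromosome 27, 7676881 to 7677960) encodes the precursor from which the orexin peptides are cut. It held 0.265, 10.0, 6.20, 16.8 and 38.8 CPM in low RFI hypothalamus libraries 1 to 5 and 5.36, 2.44, 11.2, 1.06 and 9.82 CPM in high RFI hypothalamus libraries 1 to 5. Both the lowest and the highest value were in the low RFI group, 146-fold apart, and the groups overlapped. The low over high RFI log2 fold was 1.28 (SE 0.88, 95% interval -0.44 to 2.99) and did not pass (edgeR quasi-likelihood test, Benjamini-Hochberg adjusted p = 0.964). Without low RFI library 5 the log2 fold was 0.47.

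The low RFI library 1 that held 0.265 CPM of HCRT, or 3 counts, was also the only hypothalamus library with no count of PMCH, the melanin-concentrating hormone precursor of the lateral hypothalamus. Low RFI library 5, highest for HCRT, was highest for PMCH among hypothalamus libraries, at 2.85 CPM. PMCH held 0, 0.944, 2.03, 1.09 and 2.85 CPM in low RFI hypothalamus libraries 1 to 5. In high RFI hypothalamus libraries 1 to 5 it held 0.877, 1.92, 0.972, 0.616 and 2.41 CPM. The libraries between the extremes did not rank alike, as low RFI library 4, second highest for HCRT, held 1.09 CPM of PMCH. PMCH averaged 1.38 ± 1.09 CPM in low RFI and 1.36 ± 0.767 CPM in high RFI hypothalamus (SD, n = 5 each). The 4 genes of the lateral hypothalamus marker list, all matched, summed to 198 to 521 CPM in low RFI and 137 to 298 CPM in high RFI hypothalamus, and none was at 0 in a whole group. Their sum did not follow HCRT, at 380 CPM in low RFI library 1 and 209 CPM in low RFI library 5. In libraries 1 and 5, NPTX2 held 333 and 168 CPM and LHX9 44.9 and 28.1 CPM, while CARTPT held 2.29 and 10.4 CPM. The sum of that list is not particular to the hypothalamus here. It was 413 to 1540 CPM in low RFI and 458 to 1370 CPM in high RFI pituitary, where CARTPT held at least 282 CPM. The part of the sampled area in the HCRT values was not tested.

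In the pituitary HCRT was at the limit of detection. It had 0, 1, 0, 2 and 0 counts in low RFI libraries 1 to 5 and 0, 4, 0, 4 and 0 counts in high RFI libraries 1 to 5, so 8 of 10 libraries were at or under 3 counts. It did not pass the low-count filter there and was not tested between RFI classes. HCRT averaged 10.2 ± 11.3 CPM in the hypothalamus and 0.0891 ± 0.134 CPM in the pituitary (SD, n = 10 each). It was higher in the hypothalamus by a log2 fold of 6.68 (SE 0.84; edgeR, adjusted p = 1.81e-06).

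Cholecystokinin was the most abundant of the gut-brain peptides in the hypothalamus. CCK (ENSGALG00000029788, chromosome 2, 43773646 to 43778740) held 263, 376, 97.4, 120 and 163 CPM in low RFI hypothalamus libraries 1 to 5 and 328, 82.8, 110, 147 and 78.6 CPM in high RFI hypothalamus libraries 1 to 5. Low RFI libraries 1 and 2 and high RFI library 1 were high, and the groups overlapped. The log2 fold of low over high RFI was 0.46 (SE 0.47) and did not pass (edgeR, adjusted p = 0.975). It was 0.10 without low RFI library 2 and 0.97 without high RFI library 1.

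The same 3 hypothalamus libraries were the highest for TCF7L2, a transcription factor of the thalamus and pretectum. TCF7L2 held 408, 481, 154, 178 and 270 CPM in low RFI libraries 1 to 5 and 452, 163, 168, 160 and 164 CPM in high RFI libraries 1 to 5. Among 9619 genes compared over the 10 hypothalamus libraries, the 3 whose log2 CPM was most like that of CCK were SLC25A22 (r = 0.98), LHX9 (r = 0.96) and TCF7L2 (r = 0.95). These points share libraries and scaling, and r is a description only. LHX9 is on the lateral hypothalamus marker list. The 5 matched thalamus and pretectum markers, of 5 listed, summed to 174 to 543 CPM in low RFI and 185 to 527 CPM in high RFI hypothalamus, with none at 0 in a whole group. This sum was highest in the same 3 libraries, at 473, 543 and 527 CPM, next 334 CPM in low RFI library 5. TCF7L2 gave 408 of the 473 CPM in low RFI library 1. The list's other genes did not have the same 3 libraries highest. GBX2 was highest in high RFI library 1, at 61.4 CPM. Low RFI library 5 followed at 42.5 CPM, before low RFI libraries 2 and 1 at 41.7 and 41.1 CPM. PROX1 was second highest in low RFI library 5, at 14.2 CPM. LHX2 was second highest in high RFI library 5, at 6.96 CPM, and SLC17A8 highest in low RFI library 3, at 2.91 CPM. The part of neighbouring brain tissue in the CCK values was not tested.

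In the pituitary CCK held 159, 78.2, 2.04, 6.91 and 6.11 CPM in low RFI libraries 1 to 5 and 3.19, 22.9, 11.7, 38.4 and 7.25 CPM in high RFI libraries 1 to 5. The 2 highest libraries, low RFI 1 and 2, were also the 2 highest for the neuron markers. Low RFI library 1 held 250 CPM of TCF7L2 and 29.7 CPM of LHX9, against at most 33.1 and 0.451 CPM in the other pituitary libraries. The low over high RFI log2 fold was 1.61 (SE 1.12) and did not pass (edgeR, adjusted p = 0.999). Without pituitary low RFI library 1 it was 0.50, and without the 4 pituitary libraries that stood apart it was -1.47 (SE 0.86; edgeR, adjusted p = 0.999). The latter fit held only libraries 3 and 5 of the low RFI group.

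CCK was nevertheless higher in the hypothalamus than in the pituitary. It averaged 177 ± 107 CPM in the hypothalamus and 33.6 ± 50 CPM in the pituitary (SD, n = 10 each), and the log2 fold was 2.58 (SE 0.65; edgeR, adjusted p = 0.0017). Of 10 pituitary libraries, 9 were below the lowest hypothalamus library. Without the 5 libraries that stood apart the log2 fold was 4.52 (SE 0.60; edgeR, adjusted p = 1.37e-05).

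**Figure D2:**
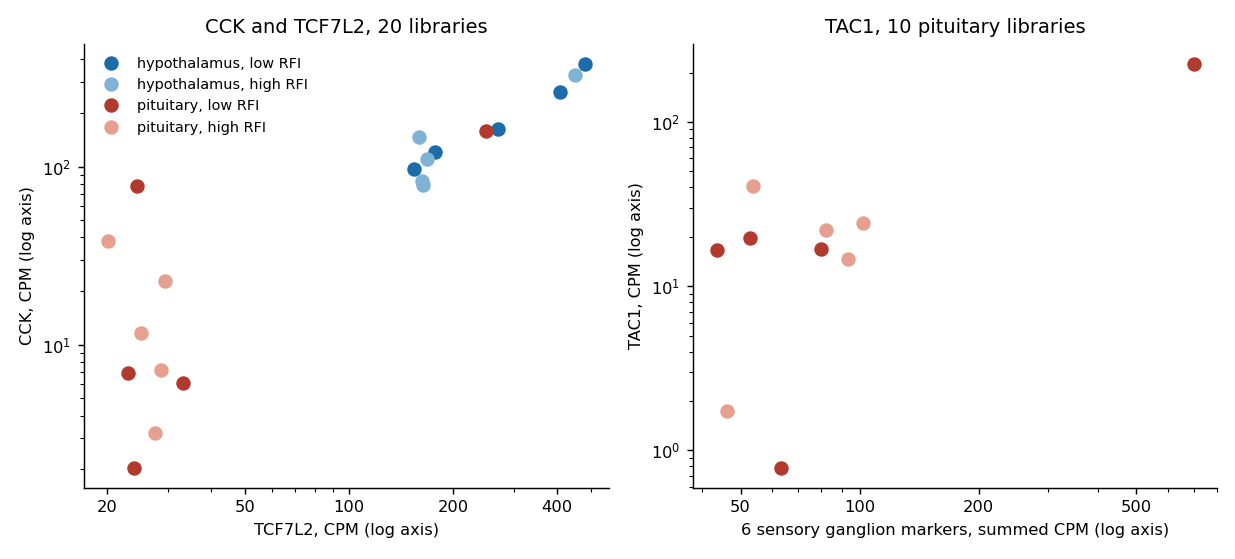
Left, CCK against TCF7L2 in the 20 libraries, both as CPM on log axes, coloured by group; pituitary low RFI library 1 lies among the hypothalamus libraries, with 159 CPM of CCK and 250 CPM of TCF7L2. Right, TAC1 in CPM against the summed CPM of 6 sensory ganglion markers in the 10 pituitary libraries, on log axes, where low RFI library 2 lies apart with 225 CPM of TAC1 and a marker sum of 698 CPM.

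Gastrin-releasing peptide was the member with the highest level in the pituitary. GRP (ENSGALG00000040959, chromosome Z, 911841 to 916760) encodes a bombesin-like peptide. In the hypothalamus it held 22.8, 29.5, 110, 216 and 47.5 CPM in low RFI libraries 1 to 5 and 54.3, 24.2, 32.3, 61.1 and 10.4 CPM in high RFI libraries 1 to 5. Low RFI libraries 3 and 4 were above every high RFI library, and the other 3 lay within the high RFI range. The log2 fold was 1.21 (SE 0.65, 95% interval -0.06 to 2.48) and did not pass (edgeR, adjusted p = 0.964). Without low RFI library 4 it was 0.53. The 3 genes most like GRP over the hypothalamus libraries were HSPA4 (r = 0.96), TUBB4B (r = 0.93) and EN1 (r = 0.93).

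EN1 is a transcription factor of the midbrain and hindbrain. It held 1.06, 3.59, 14.1, 22.6 and 2.76 CPM in low RFI hypothalamus libraries 1 to 5 and 6.43, 2.97, 3.53, 13.6 and 0.268 CPM in high RFI hypothalamus libraries 1 to 5. Low RFI libraries 3 and 4 and high RFI library 4 were thus the 3 highest for both EN1 and GRP. The summed CPM of the 7 matched markers of the cerebellum and midbrain-hindbrain, of 8 listed, did not rank the libraries in that way. It was 256 to 637 CPM in low RFI and 188 to 450 CPM in high RFI hypothalamus, highest in low RFI library 2. EN2, on that list, had the same 3 libraries highest, at 23.8, 26.0 and 22.6 CPM, next 8.13 CPM in high RFI library 3. CBLN1, ZIC1, ZIC2, FAT2 and GABRA6 did not. None of the 7 was at 0 in a whole group, and their part in the GRP values was not tested.

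In the pituitary GRP held 1050, 279, 371, 1740 and 1920 CPM in low RFI libraries 1 to 5 and 1320, 242, 413, 327 and 2620 CPM in high RFI libraries 1 to 5. High and low libraries were found in both groups, which overlapped. Low over high RFI gave a log2 fold of 0.13 (SE 0.75; edgeR, adjusted p = 0.999). The value was -0.17 without low RFI library 5 and 0.90 without high RFI library 5.

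GRP was lower in the hypothalamus, at 60.8 ± 61.3 CPM, than in the pituitary, at 1030 ± 844 CPM (SD, n = 10 each). The log2 fold of hypothalamus over pituitary was -4.20 (SE 0.60; edgeR, adjusted p = 6.37e-06), and the tissues did not overlap. The GRP locus lies within the span of an unnamed pseudogene on the same strand (ENSGALG00000047070), which held 72 counts over the hypothalamus libraries and 263 over the pituitary libraries.

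Neuromedin U was the least abundant member of the hypothalamus. NMU (ENSGALG00000020151, chromosome 4, 65036791 to 65049180) held 0.265, 4.34, 5.52, 3.65 and 0.431 CPM in low RFI hypothalamus libraries 1 to 5 and 0.390, 1.31, 0.0884, 1.67 and 2.32 CPM in high RFI hypothalamus libraries 1 to 5. Low RFI libraries 2, 3 and 4 were above every high RFI library, and low RFI libraries 1 and 5 were near the floor, with 3 and 5 counts. The log2 fold was 1.27 (SE 0.80; edgeR, adjusted p = 0.964).

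In the pituitary NMU had 6, 3, 4, 11 and 8 counts in low RFI libraries 1 to 5 and 11, 17, 19, 31 and 12 counts in high RFI libraries 1 to 5. These are 0.485, 0.240, 0.314, 0.928 and 0.669 CPM in low RFI and 0.949, 1.45, 1.46, 2.33 and 0.925 CPM in high RFI. There were 4 low RFI libraries below every high RFI library, and low RFI library 4, at 0.928 CPM, was just above high RFI library 5, at 0.925 CPM, so the groups overlapped narrowly. The log2 fold of low over high RFI was -1.43 (SE 0.42, unadjusted p = 0.00664), which did not pass in edgeR after Benjamini-Hochberg adjustment (adjusted p = 0.999). It was between -1.72 and -1.16 with each library left out in turn, and -1.28 (SE 0.55, edgeR unadjusted p = 0.0467) without the 4 that stood apart. The latter fit held only libraries 3 and 5 of the low RFI group.

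The difference of the NMU folds between the tissues, hypothalamus minus pituitary, was 2.71 on the log2 scale (SE 1.03, edgeR unadjusted p = 0.0171) and did not pass over 16747 genes (adjusted p = 1). The mean over both RFI classes was 2.00 ± 1.92 CPM in the hypothalamus and 0.976 ± 0.634 CPM in the pituitary (SD, n = 10 each). The log2 fold of hypothalamus over pituitary was 1.06 (SE 0.52) and did not pass (edgeR, adjusted p = 0.0748).

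Neurotensin was the steadiest of the gut-brain peptides in the hypothalamus. NTS (ENSGALG00000027192, chromosome 1, 42207171 to 42220099) held 58.0, 67.7, 49.9, 41.4 and 43.1 CPM in low RFI hypothalamus libraries 1 to 5 and 54.0, 48.5, 26.3, 40.0 and 48.4 CPM in high RFI hypothalamus libraries 1 to 5. The highest and lowest hypothalamus libraries were 2.57-fold apart and the groups overlapped, with a log2 fold of 0.26 (SE 0.19; edgeR, adjusted p = 0.964). In the pituitary it held 30.0, 4.63, 0.785, 6.66 and 6.61 CPM in low RFI libraries 1 to 5 and 3.71, 4.70, 9.32, 21.6 and 4.63 CPM in high RFI libraries 1 to 5.

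The 2 highest pituitary libraries for NTS were low RFI library 1 and high RFI library 4, 2 of the 3 with the highest neuron marker sums. The low over high RFI log2 fold in the pituitary was 0.15 (SE 0.82; edgeR, adjusted p = 0.999) and -0.93 without low RFI library 1. NTS was higher in the hypothalamus, at 47.7 ± 11.2 CPM, than in the pituitary, at 9.27 ± 9.21 CPM (SD, n = 10 each; log2 fold 2.36, SE 0.44; edgeR, adjusted p = 1.13e-04). All pituitary libraries other than low RFI library 1 were below the lowest hypothalamus library.

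Nucleobindin 2 was the most evenly expressed member in both tissues. NUCB2 (ENSGALG00000006147, chromosome 5, 12022253 to 12051047) encodes a calcium-binding protein from which nesfatin-1, a peptide that reduces feeding in rodents, is derived. It held 200, 254, 209, 193 and 195 CPM in low RFI hypothalamus libraries 1 to 5 and 189, 206, 189, 181 and 214 CPM in high RFI hypothalamus libraries 1 to 5. In the pituitary it held 271, 339, 411, 389 and 466 CPM in low RFI libraries 1 to 5 and 435, 391, 452, 331 and 442 CPM in high RFI libraries 1 to 5.

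The RFI groups overlapped in both tissues, with log2 folds of 0.10 (SE 0.10; edgeR, adjusted p = 0.972) in the hypothalamus and -0.12 (SE 0.15; edgeR, adjusted p = 0.999) in the pituitary. The 95% intervals were -0.08 to 0.29 and -0.42 to 0.17. Every hypothalamus library was below every pituitary library: the means were 203 ± 20.7 CPM in the hypothalamus and 393 ± 62.2 CPM in the pituitary (SD, n = 10 each). The log2 fold of hypothalamus over pituitary was -0.95 (SE 0.09; edgeR, adjusted p = 9.48e-08). The lowest pituitary value, 271 CPM, was in low RFI library 1, which had the highest neuron marker sum.

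Among the opioid and tachykinin precursors, PENK gave the tighter values. PENK (ENSGALG00000015419, chromosome 2, 111379997 to 111384344) encodes the precursor of the enkephalins. It held 127, 141, 185, 144 and 134 CPM in low RFI hypothalamus libraries 1 to 5 and 159, 111, 107, 146 and 160 CPM in high RFI hypothalamus libraries 1 to 5. In the pituitary it held 70.2, 27.2, 60.8, 55.1 and 65.0 CPM in low RFI libraries 1 to 5 and 44.1, 47.5, 59.0, 101 and 51.9 CPM in high RFI libraries 1 to 5.

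The RFI groups overlapped in both tissues. The low over high RFI log2 fold of PENK was 0.10 (SE 0.14; edgeR, adjusted p = 0.983) in the hypothalamus and -0.13 (SE 0.29; edgeR, adjusted p = 0.999) in the pituitary. The highest pituitary value lay in high RFI library 4, and without the 4 libraries that stood apart the pituitary log2 fold was 0.31 (SE 0.13, edgeR unadjusted p = 0.0418, adjusted p = 0.999). That fit held only libraries 3 and 5 of the low RFI group. Every hypothalamus library exceeded every pituitary library. PENK averaged 141 ± 23.6 CPM in the hypothalamus and 58.2 ± 19.3 CPM in the pituitary (SD, n = 10 each; log2 fold 1.28, SE 0.17; edgeR, adjusted p = 3.05e-06).

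TAC1 (ENSGALG00000009737, chromosome 2, 24644607 to 24650874), which encodes substance P and neurokinin A, held 20.2, 45.4, 63.2, 45.7 and 32.5 CPM in low RFI hypothalamus libraries 1 to 5 and 48.2, 34.9, 33.3, 39.6 and 39.0 CPM in high RFI hypothalamus libraries 1 to 5. The low RFI group spread above and below the high RFI group, and the log2 fold was 0.08 (SE 0.24; edgeR, adjusted p = 0.99). In the pituitary TAC1 held 16.6, 225, 0.785, 19.7 and 16.8 CPM in low RFI libraries 1 to 5 and 1.73, 21.9, 24.2, 40.8 and 14.6 CPM in high RFI libraries 1 to 5. The pituitary libraries were 287-fold apart and the groups overlapped.

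The 225 CPM of TAC1 lay in pituitary low RFI library 2, the library with 475 CPM of the sodium channel gene SCN11A and 53.5 CPM of the capsaicin receptor gene TRPV1. The next highest pituitary libraries held 25.0 and 5.70 CPM of these sensory neuron genes. The 6 matched sensory ganglion markers, of 8 listed, summed to 43.5 to 698 CPM in low RFI and 46.2 to 102 CPM in high RFI pituitary, with none at 0 in a whole group and SCN11A at 0 in low RFI library 3. For TAC1 in the pituitary the log2 fold of low over high RFI was 1.44 (SE 1.15; edgeR, adjusted p = 0.999) with this library and -0.62 without it.

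TAC1 averaged 40.2 ± 11.5 CPM in the hypothalamus and 38.2 ± 66.6 CPM in the pituitary (SD, n = 10 each; log2 fold 0.24, SE 0.60; edgeR, adjusted p = 0.73). Without pituitary low RFI library 2 the log2 fold was 1.27 and passed (edgeR, adjusted p = 0.018). That library held the highest pituitary value, so leaving it out raises the fold. The pass is thus no separate support for a tissue difference. Without all 5 libraries that stood apart, that library among them, the log2 fold was 1.77 (SE 0.57; edgeR, adjusted p = 0.0137). The levels were then 39.6 ± 12.0 CPM in 9 hypothalamus libraries and 13.3 ± 9.97 CPM in 6 pituitary libraries.

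BDNF (ENSGALG00000012163, chromosome 5, 3979544 to 4011508) encodes brain-derived neurotrophic factor, which lowers food intake in rodents through NTRK2. It held 4.67, 12.0, 5.23, 2.83 and 5.18 CPM in low RFI hypothalamus libraries 1 to 5 and 4.09, 3.06, 2.21, 4.75 and 3.12 CPM in high RFI hypothalamus libraries 1 to 5. There were 3 low RFI libraries above the highest high RFI library, and the groups overlapped. The log2 fold was 0.80 (SE 0.36, unadjusted p = 0.0454) and did not pass in edgeR (adjusted p = 0.964). Without low RFI library 2, which carried TTR and ASMT, it was 0.37 (SE 0.27, edgeR unadjusted p = 0.191).

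In the pituitary BDNF held 3.39, 6.15, 0.236, 2.19 and 0.669 CPM in low RFI libraries 1 to 5 and 0.863, 1.80, 1.00, 14.1 and 0.617 CPM in high RFI libraries 1 to 5. The 3 highest values, in high RFI library 4 and low RFI libraries 2 and 1, were in the 3 libraries with the highest neuron marker sums. High RFI library 4 also held 66.8 CPM of EN2, 123 CPM of FAT2 and 25.6 CPM of GABRA6, genes of the cerebellum and its border, against at most 1.80, 2.61 and 1.29 CPM in the other pituitary libraries. The 7 matched markers of the cerebellum and midbrain-hindbrain summed to 21.0 to 338 CPM in low RFI and 30.2 to 1140 CPM in high RFI pituitary. For BDNF the pituitary log2 fold of low over high RFI was -0.55 (SE 1.03; edgeR, adjusted p = 0.999) and 1.26 without high RFI library 4.

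BDNF averaged 4.71 ± 2.77 CPM in the hypothalamus and 3.11 ± 4.26 CPM in the pituitary (SD, n = 10 each), with a log2 fold of 0.57 (SE 0.56) that did not pass (edgeR, adjusted p = 0.373). It passed in limma-voom, with a log2 fold of 1.35 (adjusted p = 0.0262). Without pituitary high RFI library 4 the log2 fold was 1.46 and passed (edgeR, adjusted p = 0.00602). That library held the highest pituitary value, so leaving it out raises the fold. The pass is thus no separate support for a tissue difference. Without all 5 libraries that stood apart, that library among them, the log2 fold was 2.49 (SE 0.32; edgeR, adjusted p = 3.69e-06). The levels were then 3.90 ± 1.12 CPM in 9 hypothalamus libraries and 0.864 ± 0.527 CPM in 6 pituitary libraries.

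Between low and high RFI, none of the members passed in either tissue. In the hypothalamus 0 of 9 tested members were called, against 0% of all 15179 genes tested (edgeR, adjusted p under 0.05), and 1 member, BDNF, had an unadjusted p under 0.05, as 4.8% of all genes did. All 9 log2 folds were positive with a median of 0.46, against 7860 positive folds and a median of 0.01 over all genes tested. In limma-voom 8 of the 9 folds were positive, and without low RFI library 2 the members' median in edgeR was 0.14. Of the gene lists described below, 9 of 10 related peptide genes and 13 of 16 processing and sorting genes also had positive folds in edgeR. So did 9 of 13 receptors and 4 of 9 peptidases. The members share libraries, so their 9 folds are not separate results. In the pituitary 0 of 8 tested members were called, against 0% of 15786 genes, and 1 member, NMU, had an unadjusted p under 0.05, as 1.88% of all genes did. There 4 folds were positive and 4 negative, with a median of 0.01 against 0.02 over all genes.

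The difference of the RFI folds between the tissues was not called for any of 9 tested members, against 0% of 16747 genes, and NMU was the 1 member with an unadjusted p under 0.05, as 2.34% of all genes were. No member's RFI groups were without overlap in either tissue, against 0.85% of genes in the hypothalamus and 0.253% in the pituitary. DESeq2 called 5 genes in the hypothalamus, 0 in the pituitary and 2 for the difference between tissues, and limma-voom called 0 in each. None of these was a member. With a standard error of 0.65 to 0.88 for GRP, NMU and HCRT in the hypothalamus, the 95% intervals of their log2 folds still held 0 and folds of over 2 on the log2 scale.

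**Figure D3:**
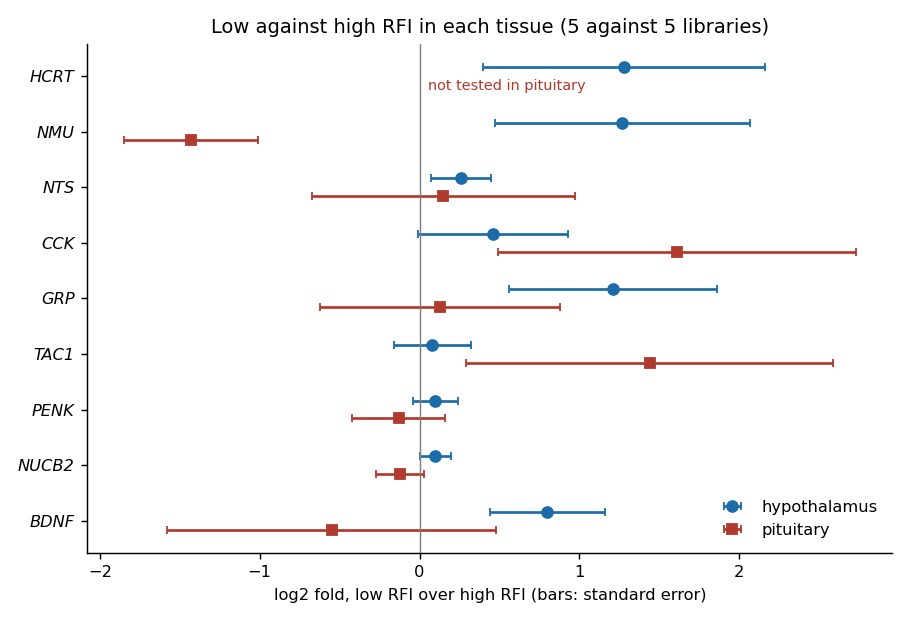
Log2 fold of low over high RFI for each precursor gene in the hypothalamus (circles) and the pituitary (squares), with bars for the standard error (edgeR, 5 against 5 libraries). The hypothalamus folds ran between 0.08 for TAC1 and 1.28 for HCRT, the pituitary folds between -1.43 for NMU and 1.61 for CCK, and none passed.

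Between the tissues, 6 of 9 members passed, against 70.8% of all 16747 genes tested, so the members' share was near the background. HCRT, CCK, NTS and PENK were higher in the hypothalamus, where 32.5% of all genes were called higher. GRP and NUCB2 were lower in the hypothalamus, where 38.3% of all genes were called lower. NMU, TAC1 and BDNF did not pass. GRP, NUCB2 and PENK did not overlap between the tissues, as was so for 18.9% of all genes. The median log2 fold of the members was 1.06.

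Without the 5 libraries that stood apart, 8 of 9 members passed, 6 of them higher and 2 lower in the hypothalamus, and NMU did not (log2 fold 1.13; edgeR, adjusted p = 0.155). The share of all genes called was then 72.8%. HCRT reached a log2 fold of 8.26 (SE 1.63) and NTS of 3.33 (SE 0.36), while GRP at -4.25, NUCB2 at -1.13 and PENK at 1.33 moved less from their values over 20 libraries. CCK, NTS, BDNF and TAC1 had their highest pituitary values in libraries with high neuron marker sums, and the part of those markers in the change was not tested. Those libraries were among the 5 left out. The passes of BDNF and TAC1 and the larger folds of CCK and NTS without them are thus no separate support for a tissue difference. HCRT kept only 4 counts over 6 pituitary libraries, against 11 over all 10. Its larger fold thus rests on counts at the floor and is no separate support either.

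**Figure D4:**
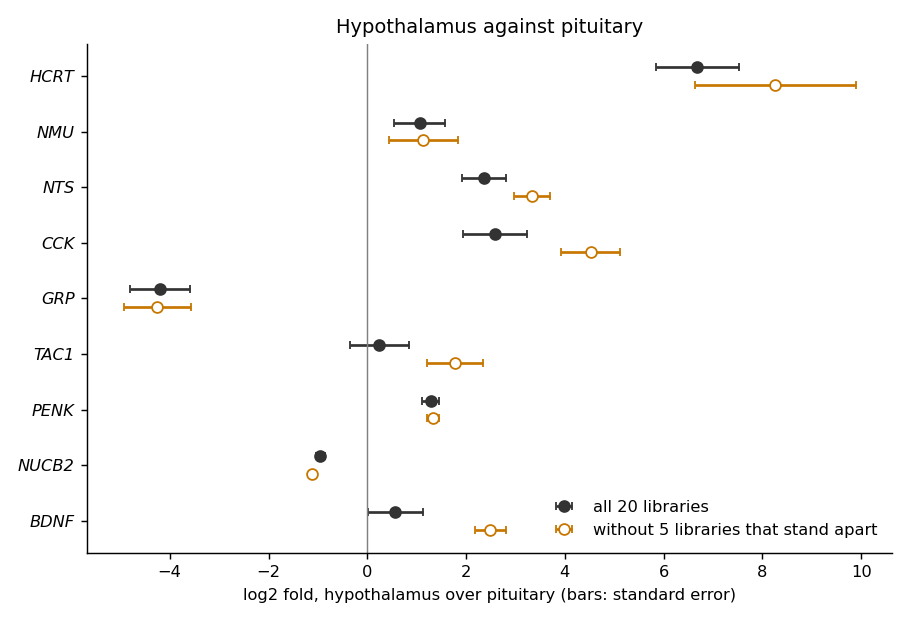
Log2 fold of hypothalamus over pituitary for each precursor gene over all 20 libraries (filled) and without the 5 libraries that stood apart (open), with bars for the standard error (edgeR). BDNF was at 0.57 over all libraries and 2.49 without the 5, and TAC1 at 0.24 and 1.77, while PENK was at 1.33, GRP at -4.25 and NUCB2 at -1.13 without the 5.

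The receptors of these peptides were mostly higher in the hypothalamus. Of 19 receptor genes listed 17 were matched and 14 tested, and 12 were higher in the hypothalamus, 1 was lower and 1 did not pass (edgeR, adjusted p under 0.05), with a median log2 fold of 1.63. Over all 16747 genes tested, 32.5% were higher and 38.3% lower in the hypothalamus, with a median of -0.07. The neuron markers went the same way: 9 of the 10 tested were higher in the hypothalamus, with a median log2 fold of 1.92. Higher values in the hypothalamus are thus not particular to the receptors, and the part of neuron content in their folds was not tested. The 6 with the smallest p were the opioid receptor genes OPRD1 and OPRK1, the substance P receptor gene TACR1, the sorting and neurotensin receptor gene SORT1, the neuromedin U receptor gene NMUR1 and the neurotensin receptor gene NTSR1. OPRD1 averaged 7.14 ± 1.89 CPM in the hypothalamus and 0.620 ± 1.13 CPM in the pituitary (SD, n = 10 each; log2 fold 3.57, SE 0.63; edgeR, adjusted p = 6.02e-05). Its highest pituitary value, 3.64 CPM, was in low RFI library 1, and without the 5 libraries that stood apart the log2 fold was 5.53 (SE 0.41; edgeR, adjusted p = 4.71e-09). NTSR1 averaged 4.74 ± 1.18 CPM in the hypothalamus and 0.759 ± 1.23 CPM in the pituitary, and NMUR1 averaged 1.39 ± 0.403 CPM in the hypothalamus and 0.287 ± 0.351 CPM in the pituitary.

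TACR1 averaged 8.69 ± 1.54 CPM in the hypothalamus and 2.43 ± 2.24 CPM in the pituitary, and OPRK1 averaged 6.90 ± 0.952 CPM in the hypothalamus and 2.48 ± 1.92 CPM in the pituitary (SD, n = 10 each). SORT1, the most abundant of them by count, averaged 157 ± 25.9 CPM in the hypothalamus and 108 ± 17.2 CPM in the pituitary. The highest pituitary value of 10 of the 12 receptors lay in low RFI library 1 or high RFI library 4, 2 of the libraries that stood apart. Without the 5 libraries the counts were 12 higher and 1 lower, with a median log2 fold of 2.70. Leaving out the libraries with the highest pituitary values raises the folds. The larger folds, that of OPRD1 among them, are thus no separate support for a tissue difference.

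The exception was NGFR, the low-affinity neurotrophin receptor gene, at 2.88 ± 0.744 CPM in the hypothalamus and 10.4 ± 12.6 CPM in the pituitary (SD, n = 10 each; log2 fold -1.80, SE 0.40; edgeR, adjusted p = 5.52e-04). Its highest pituitary value, 45.8 CPM, was in low RFI library 2, and the log2 fold was -1.25 (SE 0.17) without the 5 libraries. CCKAR, the receptor gene for sulfated cholecystokinin, did not pass (log2 fold -0.51, SE 0.48; edgeR, adjusted p = 0.356).

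**Figure D5:**
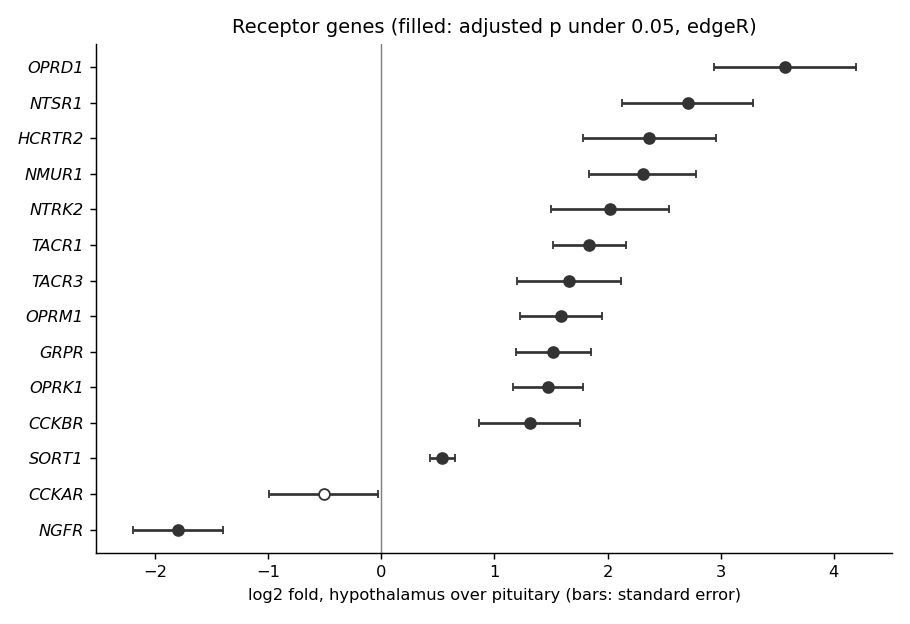
Log2 fold of hypothalamus over pituitary for 14 receptor genes of these peptides, with bars for the standard error; filled points passed in edgeR at an adjusted p under 0.05. The 12 filled points above 0 run from SORT1 at 0.54 to OPRD1 at 3.57, and NGFR lies at -1.80.

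No receptor passed between RFI classes. In the hypothalamus 0 of 13 tested receptors were called, with a median log2 fold of 0.10. The 3 of smallest p were NMUR1, TACR1 and TACR3 (edgeR, adjusted p = 0.964 each). NMUR1 averaged 1.65 ± 0.321 CPM in low RFI and 1.13 ± 0.299 CPM in high RFI (SD, n = 5 each). TACR1 averaged 9.58 ± 1.36 CPM in low RFI and 7.80 ± 1.22 CPM in high RFI, and TACR3 averaged 3.12 ± 1.01 CPM in low RFI and 2.03 ± 0.816 CPM in high RFI. In the pituitary 0 of 10 were called, and CCKAR, NGFR and NTRK2 had the smallest p (edgeR, adjusted p = 0.999 each). CCKAR averaged 2.20 ± 2.40 CPM in low RFI and 0.831 ± 0.527 CPM in high RFI pituitary, with 6.49 CPM in low RFI library 4.

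Of 17 enzymes and granins that process and sort precursors, 16 were matched and tested, and 4 were higher and 7 lower in the hypothalamus (edgeR, adjusted p under 0.05). These 68.8% that passed are near the 70.8% of all genes tested between the tissues. The prohormone convertase gene PCSK1 was lower in the hypothalamus, at 34.0 ± 10.6 CPM against 247 ± 84.2 CPM in the pituitary (SD, n = 10 each; log2 fold -2.86; edgeR, adjusted p = 7.66e-09). The granule protein gene CHGA was lower as well, at 418 ± 95.6 CPM in the hypothalamus and 29000 ± 8930 CPM in the pituitary (log2 fold -6.12), as were TPST1 (-1.21), which sulfates tyrosines, and SCG3 (-0.91). SCG5, the chaperone of the convertase PCSK2, and the carboxypeptidase gene CPE were higher in the hypothalamus, with log2 folds of 0.85 and 0.81.

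Between RFI classes none of the 16 passed in either tissue. The 3 of smallest p in the hypothalamus were CHGB, SCG2 and PCSK2, with low over high RFI log2 folds of 0.55, 0.30 and 0.31 (edgeR, adjusted p = 0.964 each). CHGB held 723, 756, 686, 757 and 633 CPM in low RFI libraries 1 to 5 and 661, 411, 417, 461 and 478 CPM in high RFI libraries 1 to 5. Only low RFI library 5 lay below the highest high RFI library (unadjusted p = 7.54e-04 in edgeR). In the pituitary TPST2, PCSK2 and FURIN had the smallest p, with log2 folds of -0.29, 0.41 and -0.09 (edgeR, adjusted p = 0.999 each).

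Among peptidases, 11 of 12 listed genes were matched and tested between the tissues, and 2 were higher and 5 lower in the hypothalamus. That is 63.6%, against 70.8% of all genes. DPP4 averaged 0.443 ± 0.242 CPM in the hypothalamus and 31.1 ± 11.4 CPM in the pituitary (SD, n = 10 each; log2 fold -6.10; edgeR, adjusted p = 3.23e-11). The neprilysin gene MME, whose enzyme cuts enkephalins and tachykinins, averaged 5.21 ± 0.926 CPM in the hypothalamus and 77.1 ± 29.0 CPM in the pituitary (log2 fold -3.88). ENPEP (-3.25), ECE1 (-1.40) and TPP2 (-0.59) were lower as well, and NLN, the neurolysin gene, was higher (0.45). None passed between RFI classes, where PREP, LNPEP and ECE1 had the smallest p in the hypothalamus (log2 folds 0.11, 0.16 and -0.08; edgeR, adjusted p = 0.964, 0.975 and 0.976). ENPEP, ACE and ANPEP had the smallest p in the pituitary (log2 folds -2.20, -0.56 and -0.29; edgeR, adjusted p = 0.999 each). The highest ENPEP value, 7.61 CPM, was in high RFI library 2, and the other high RFI libraries held 0.617 to 1.65 CPM.

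Of 21 related peptide and neurotrophin genes listed, 13 were matched and 12 tested between the tissues, with 4 higher and 4 lower in the hypothalamus. The share that passed, 66.7%, was near the 70.8% of all genes. The opioid precursor gene POMC, the main corticotrope transcript, averaged 7.35 ± 6.38 CPM in the hypothalamus and 18300 ± 6880 CPM in the pituitary (SD, n = 10 each; log2 fold -11.30; edgeR, adjusted p = 2.75e-10). NMS, the paralog of NMU, averaged 0.414 ± 0.262 CPM in the hypothalamus and 3.49 ± 1.85 CPM in the pituitary (log2 fold -3.08), and the BDNF relative NTF3 averaged 1.59 ± 1.28 CPM in the hypothalamus and 12.7 ± 3.98 CPM in the pituitary (log2 fold -3.06). GCG was lower too (-1.63). NPVF, the precursor of gonadotropin-inhibitory hormone, was higher in the hypothalamus at 27.7 ± 27.2 CPM against 1.02 ± 0.987 CPM in the pituitary (log2 fold 4.86), as was VIP (1.39).

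No relative passed between RFI classes. In the pituitary VIP held 3.96, 0.479, 9.74, 7.0 and 16.6 CPM in low RFI libraries 1 to 5 and 19.8, 23.3, 16.9, 41.9 and 17.0 CPM in high RFI libraries 1 to 5. The groups did not overlap, as for 0.253% of all genes, and the log2 fold was -1.67 (SE 0.65; edgeR, adjusted p = 0.999). It was -0.55 (SE 0.24) without the 4 libraries that stood apart, which left only libraries 3 and 5 in the low RFI group. RLN3 and GAL had the next smallest p, with log2 folds of -1.31 for both (edgeR, adjusted p = 0.999 each). Both were highest in high RFI library 4, at 72.2 CPM for RLN3 and 83.9 CPM for GAL, and without the 4 libraries that stood apart their log2 folds were -0.55 and -0.25. In the hypothalamus NTF3 and RLN3 were among the 3 of smallest p, with log2 folds of 0.97 and 0.26 (edgeR, adjusted p = 0.964 each).

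Within the hypothalamus the members were compared in pairs. With 10 libraries, a lack of passing pairs does not show that the members varied independently. The share over all pairs of genes was not computed. Of 36 pairs of members over the 10 libraries, 4 had an unadjusted p under 0.05 for Pearson's r of log2 CPM and none passed after Benjamini-Hochberg adjustment (permutation test of 100000 resamples, two-sided, smallest adjusted p = 0.303). The largest value was that of NTS and BDNF (r = 0.72, permutation p = 0.0296; Spearman's rho = 0.55, permutation p = 0.106). Without the 2 libraries farthest from the median of NTS it was 0.13. Leaving out the extremes of a gene narrows its range and tends to lower r. The fall thus cannot show whether r rests on those libraries. For PENK and TAC1 r was 0.67 (permutation p = 0.0337; rho = 0.75, permutation p = 0.0181), and 0.54 without the 2 libraries farthest from the median of PENK. NMU and TAC1 gave r = 0.68 (permutation p = 0.023; rho = 0.67, permutation p = 0.0386), and 0.56 without 2 libraries.

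By the same measure of likeness over the 10 hypothalamus libraries, given as a description, the 3 genes most like each remaining member were as follows. HCRT was most like KYAT3, SLC16A3 and CYB561, with r of 0.80 to 0.81, the lowest of any member. NMU was most like LRRC18 (r = 0.97), RP2 (0.92) and TPCN3 (0.90). NTS was most like PLEKHF1 (0.95), WASF1 (0.94) and NUDT7 (0.93). The closest genes to NUCB2 were MBTPS1 (0.96), SPEF2 (0.94) and GRAMD2B (0.94), and to PENK were SGCB (0.87), RAB27A (0.86) and R3HDM4 (0.86). TAC1 was most like XBP1 (0.94), MED21 (0.93) and BAMBI (0.93), and BDNF most like GALNT18, MARCH1 and CTGF (0.92 each). All of these share the libraries, their depth and their scaling.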

How the data were processed

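The authors deposited raw read counts per gene and FPKM values for 28021 genes. Per the submitters' processing notes the build was GRCg6a and the tools HISAT2 2.0.5 and DESeq2 1.20.0. The sources used here name neither the counting tool nor the use of strand, so reads of overlapping genes cannot be told apart. The deposited FPKM equal count over gene length and scaled library size (largest relative deviation 5.3e-15).

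Tests used edgeR 4.0.16 in R 4.3.3, with filterByExpr, TMM scaling, its robust quasi-likelihood test, Benjamini-Hochberg adjustment over all genes tested, threshold 0.05. Each tissue was fitted alone for RFI, and all 20 libraries together for the tissue comparison and the difference between tissues. CPM use TMM scaling over all 20 libraries. Alternatives were DESeq2 1.42.0, limma-voom 3.58.1, other size factors, no filter, a replicate block and libraries left out. The steps were tested on simulated counts. Within groups, the chi-square of counts between libraries was 7.86 to 195 times its degrees of freedom, and each library was counted as a sample.

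All members are named. From each list the text names up to 6 genes that passed, or else the 3 of smallest p, and beside each member the 3 most similar genes with a mean of at least 5 CPM. Members, lists, markers and the 5 libraries that stood apart were chosen with earlier results of these data known. CARTPT, PMCH, NPTX2, EN2, FAT2, GABRA6, CBLN1, ZIC1, ZIC2, SCN11A, TRPV1 and TTR were named after their values were seen. So were ASMT, CHIA, GBX2, LHX2, PROX1 and SLC17A8, and NGFR and CCKAR between tissues. Some results that the rule would give are not reported here.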

Additional observations from a re-analysis of the deposited data

Results flagged for a closer look

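Of 36 sets of 5 libraries (9 genes in 4 groups), 7 had a highest or lowest library whose gap to the nearest other exceeded 0.71 of the group's range. For independent, normally distributed values this would be about 1 in 20. CPM need not be normal, the sets share libraries, and all 7 were highest libraries, so the 7 cannot be set against that rate. TAC1 in pituitary low RFI library 2 stood at 225 CPM, with the next library of its group at 19.7. BDNF in pituitary high RFI library 4 stood at 14.1 CPM, next 1.80, and PENK in the same library at 101 CPM, next 59.0. NTS in pituitary low RFI library 1 stood at 30.0 CPM, next 6.66. In hypothalamus low RFI library 2, BDNF stood at 12.0 CPM, next 5.23, and NUCB2 at 254 CPM, next 209. CCK in hypothalamus high RFI library 1 stood at 328 CPM, next 147. Of the 7 values, 6 lay in 4 of the libraries that stood apart on marker genes, which are named beside each gene in the results, and the part of those markers was not tested.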

How the results depend on the processing

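DESeq2 called 5 genes instead of 0 in the hypothalamus and 2 instead of 0 for the difference between tissues; the cause was not tested. With each library left out in turn, 0 genes were called in the hypothalamus, in the pituitary and for the difference between tissues, and 11576 to 12341 between the tissues, where all libraries gave 11862. By the authors' FPKM in place of CPM, 4 of 9 members kept their rank in the hypothalamus, since FPKM divides by length. Correlations of libraries with the same replicate number, with group means removed, ran between -0.31 and 0.36, over 0.1 in 5 of 20. They cannot show whether same-numbered libraries of the 2 tissues came from the same birds. The main tests treated all libraries as independent. With the number as a replicate block, 0, 0, 0 and 11574 genes were called, and BDNF passed between the tissues (log2 fold 1.25; edgeR, adjusted p = 0.0351). BDNF also passed there in limma-voom (1.35, adjusted p = 0.0262), and NMU in DESeq2 (1.10, adjusted p = 0.0492). NMU passed without hypothalamus low RFI library 1, low RFI library 5 or high RFI library 3 (log2 folds 1.2 to 1.22; edgeR, adjusted p = 0.0292 to 0.0364). Between RFI classes no setting gave a member an adjusted p under 0.812 in the hypothalamus or 0.979 in the pituitary. In the hypothalamus 8 of 9 members had 1 sign in all 17 settings and TAC1 had a negative fold in 2. In the pituitary 1 of 8, NMU, had 1 sign in all settings. Counts near 3, as for HCRT and NMU in the pituitary, limit what could be detected.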

Other observations

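In the pituitary, where likeness was added after values were seen, the 3 genes most like GRP over 10 libraries were STX5 (r = 0.89), LRRC74B (0.88) and N-RAS (0.88), among 9962 genes compared. NUCB2 was most like VLDLR (0.98), CTBPL (0.97) and WNT5A (0.97), and PENK most like PLPPR1 (0.96), HDGFL3 (0.94) and DDX11 (0.91). CCK was most like CNTN4, VAMP1 and FABP5 (0.98 each), and BDNF most like NRBP2 (0.96), NPTX1 (0.95) and CORO7 (0.95). These are descriptions over libraries that share depth and scaling. Within NMU's family of signals, its paralog NMS was lower in the hypothalamus than in the pituitary, with a log2 fold of -3.08, and the receptor gene NMUR1 was higher in the hypothalamus, by 2.31 (edgeR, adjusted p = 3.04e-06 and 2.42e-04).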
